A study of Mus musculus with 9 samples.

Results

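The genes described here encode the proteins of the mitochondrial ribosome and were taken by symbol: every listed gene whose symbol starts with Mrpl or Mrps followed by a number. The rule found 77 of the 13192 genes with counts, 48 named for the large subunit (Mrpl) and 29 for the small subunit (Mrps), and all 77 passed the low-count filter, which removed none of the 13192. The mice were male C57BL/6J wild types, injected at 10 weeks of age in the right gastrocnemius, a calf muscle, with 1e+11 viral particles of an adeno-associated virus (AAV), and the tip (apex) of the heart was taken 12 weeks later for RNA. The 5 AAV-Osm libraries came from mice given the virus that carries the cytokine oncostatin M, and the 4 AAV-Null libraries from mice given the control virus. The labels name neither the serotype nor the promoter driving oncostatin M, and 1 further AAV-Null sample that was submitted for sequencing is not part of the data used here. They do not state outright that every library had its own mouse, so the p-values below rest on the spread among 9 samples that may be partly technical. The question was whether the transcripts of the mitochondrial ribosome differed in the heart under added oncostatin M, and whether the large and small subunits differed alike.

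The mitochondrial ribosome makes the few respiratory chain subunits that the mitochondrial genome encodes. Its ribosomal RNAs are transcribed inside the organelle, whereas all of its proteins are encoded in the nucleus, made in the cytosol and imported. The small subunit binds the messenger RNA and decodes it, and the large subunit joins the amino acids. Many of the proteins have counterparts in bacterial ribosomes, and others were added during the evolution of mitochondria. Heart muscle is rich in mitochondria. In mammals the products of Mrps18a and Mrps30 sit in the large subunit in spite of their names, and the product of Mrps36 is now known as a subunit of the 2-oxoglutarate dehydrogenase complex.

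Total counts over the listed genes ran from 11841106 to 30625134 per library, and the lowest count of any of the 77 genes in any library was 189. The 77 genes took 0.597% to 0.635% of the counts in AAV-Osm libraries and 0.605% to 0.702% in AAV-Null libraries. All 12 heart muscle cell markers were listed and summed to 93392 to 123053 CPM (library-scaled counts, with TMM factors) in AAV-Osm and 91445 to 115665 CPM in AAV-Null libraries. Genes of the mitochondrial genome and Osm itself were not analysed here (0 listed), so neither the mitochondrial ribosomal RNAs nor the delivered transcript could be set beside these genes. In bulk tissue, fewer cells of a type and less RNA per cell cannot be told apart.

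Because the proteins are made from scattered nuclear genes, their promoters are shown first. RefSeq promoter windows (GRCm38.p6, from 250 bases before to 50 after the start) were matched for 68 of the 77 genes. For 63 of these the RefSeq start lay within 100 bases of the gene start listed with the counts. The letters CCGGAAG, on either strand, an ETS-type sequence of the kind GABPA binds, stood in 24 of the 68 windows (35.3%), against 1777 of the 10004 matched windows of all listed genes (17.8%). AAGATGGCG, on either strand, a YY1-type sequence, stood in 8 (11.8%, against 3.17% of all). The palindromic NRF1-type sequence stood in 3 (Mrpl9, Mrpl32 and Mrpl39; 4.41%, against 2.04%). The GC box GGGCGG, on either strand, stood in 34 (50.0%, against 64.6%). By subunit, CCGGAAG stood in 13 of 42 large subunit windows (31.0%) and 11 of 26 small subunit windows (42.3%). Among those 11 were the windows of Mrps23 and Mrps21, whose RefSeq starts lay 10282 and 895 bases from the starts listed with the counts. In the windows of cytosolic ribosomal protein genes CCGGAAG stood in 34.3% (24 of 70), and in those of nuclear respiratory chain genes in 23.4% (15 of 64). AAGATGGCG stood in 5.71% and 9.38% of these, and the NRF1-type sequence in 1.43% and 7.81%. No difference between these sets was tested. At least 1 of the first 3 stood in 33 windows (48.5%, against 21.9%); CCGGAAG and AAGATGGCG can share the letters AAG, and each was counted by itself. A match describes the sequence and is not a binding site. Below are 5 windows, from 250 bases before to 30 after the start, in lower case with the ETS-type, YY1-type and NRF1-type letters on either strand in capitals. Mrps18a was chosen because it holds both of the first kinds near its start, and Mrps11 because its window partly overlaps that of Mrpl46. The YY1-type match of Mrps11 lies outside the Mrpl46 window, which holds 0 such matches. Mrps12 has an ETS-type match just after its RefSeq start, which lies 40 bases upstream of the start listed with the counts. Mrpl9 has the palindrome, and Mrpl14, the gene with the lowest fold change, has none of the 3.
Mrps18a (chr17:46110754-46111033, plus strand): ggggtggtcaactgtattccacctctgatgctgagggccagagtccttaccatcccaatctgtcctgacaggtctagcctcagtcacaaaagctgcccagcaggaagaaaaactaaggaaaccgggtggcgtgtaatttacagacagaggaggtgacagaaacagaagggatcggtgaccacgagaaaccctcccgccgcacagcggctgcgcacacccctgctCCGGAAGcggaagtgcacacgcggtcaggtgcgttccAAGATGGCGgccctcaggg
Mrps11 (chr7:78782881-78783160, plus strand): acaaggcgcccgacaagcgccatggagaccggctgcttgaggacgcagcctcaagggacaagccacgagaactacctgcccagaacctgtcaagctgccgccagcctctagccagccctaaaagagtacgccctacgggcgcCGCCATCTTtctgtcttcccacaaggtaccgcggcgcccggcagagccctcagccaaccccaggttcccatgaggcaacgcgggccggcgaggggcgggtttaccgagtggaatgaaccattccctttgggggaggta
Mrps12 (chr7:28741792-28742071, minus strand): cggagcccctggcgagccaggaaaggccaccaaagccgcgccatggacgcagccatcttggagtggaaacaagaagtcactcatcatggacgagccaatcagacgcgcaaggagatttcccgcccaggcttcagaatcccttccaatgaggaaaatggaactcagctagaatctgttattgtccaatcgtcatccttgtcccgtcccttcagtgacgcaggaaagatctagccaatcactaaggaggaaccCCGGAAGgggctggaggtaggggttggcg
Mrpl9 (chr3:94443086-94443365, plus strand): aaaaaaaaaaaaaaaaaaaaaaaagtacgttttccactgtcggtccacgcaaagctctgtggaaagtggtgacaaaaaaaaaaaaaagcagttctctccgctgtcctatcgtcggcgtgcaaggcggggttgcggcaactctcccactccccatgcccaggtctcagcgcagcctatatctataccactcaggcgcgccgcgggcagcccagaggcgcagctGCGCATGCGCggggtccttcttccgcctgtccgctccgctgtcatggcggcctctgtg
Mrpl14 (chr17:45686099-45686378, plus strand): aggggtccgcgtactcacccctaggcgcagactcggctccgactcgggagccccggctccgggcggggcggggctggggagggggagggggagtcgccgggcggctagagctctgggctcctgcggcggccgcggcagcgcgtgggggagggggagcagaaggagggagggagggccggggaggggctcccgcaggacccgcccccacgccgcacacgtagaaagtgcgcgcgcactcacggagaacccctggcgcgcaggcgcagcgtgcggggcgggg

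Per kilobase of listed exon, their median level was 63.1 CPM, against 4.40 CPM per kilobase over all listed genes, and the median of the 77 genes lay at the 92.5th percentile of all genes. The levels spanned a wide range. The large subunit genes had a median of 64.8 CPM per kilobase (8.60 to 536) and the small subunit genes one of 56.1 (8.08 to 448). In the large subunit the highest were Mrpl42 (536 CPM per kilobase), Mrpl30 (375) and Mrpl12 (309), and in the small subunit Mrps21 (448), Mrps16 (148) and Mrps18a (137). Mrpl12 encodes the flexible stalk protein that recruits translation factors. The lowest were Mrpl35 (10.6), Mrpl17 (9.45) and Mrpl1 (8.60) in the large subunit and Mrps22 (15.2), Mrps2 (14.1) and Mrps25 (8.08) in the small subunit. Mrpl17 and Mrps25 are listed with 6712 and 6065 bases of exon, far above the median of 1053 for the 77 genes, and a summed exon length counts every isoform. A level per kilobase therefore understates genes of which the heart uses a short isoform.

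**Figure D1:**
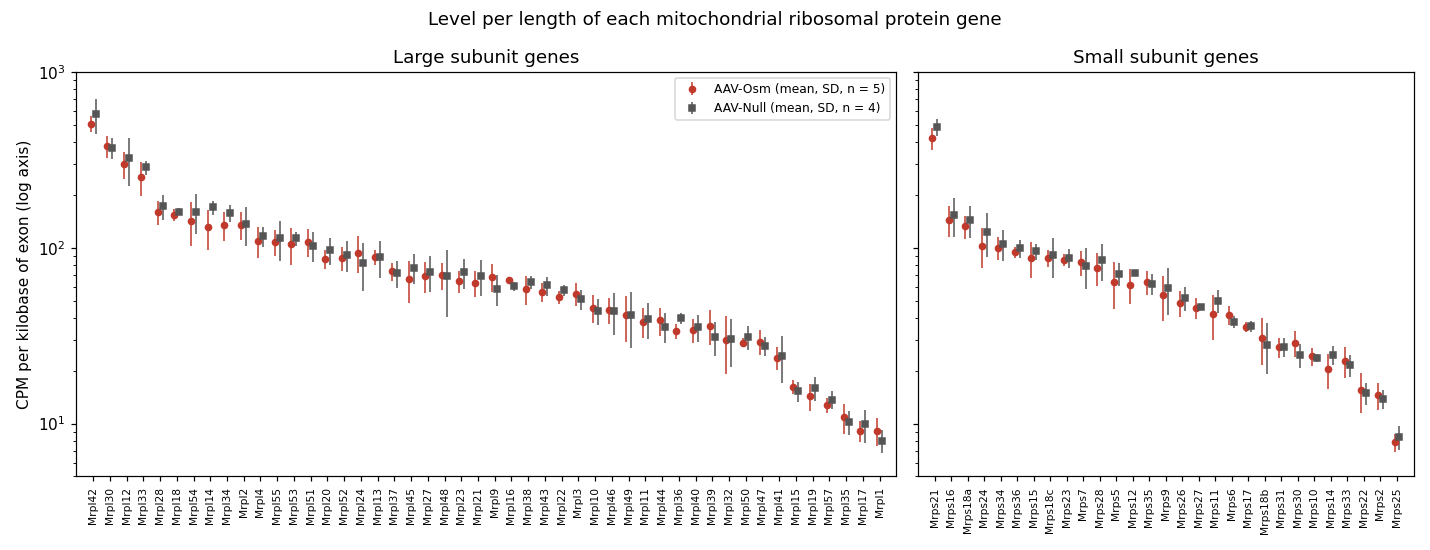
Mean level per length, in CPM per kilobase of listed exon on a log axis, for the 48 large and 29 small subunit genes in AAV-Osm (circles, n = 5) and AAV-Null (squares, n = 4) libraries, with SD bars, sorted by level. Levels run from 536 CPM per kilobase for Mrpl42 to 8.08 for Mrps25, with Mrpl1 the lowest large subunit gene at 8.60.

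None of the genes passed the test between AAV-Osm and AAV-Null hearts. In edgeR's quasi-likelihood test, 0 of 77 had a p adjusted over all 13192 genes under 0.05, where 0.121% of all genes (16) did, 0.0834% higher and 0.0379% lower. DESeq2 (0.402% of all genes), limma-voom (0.0985%) and limma-voom with quality weights (1.29%) also called 0 of the 77. At an unadjusted p under 0.05 edgeR gave 1 of 77, lower in AAV-Osm, against 5.97% of all genes in either direction and 3.09% lower. Unadjusted, DESeq2 gave 2 of 77, where 6.28% of all genes passed, and limma-voom gave 1, where 5.97% did. With quality weights limma-voom gave 16 of 77, where 25.2% of all genes passed. For 0 of 77 did the AAV-Osm libraries lie wholly above or below the AAV-Null libraries, against 2.28% of all genes. The log2 fold changes (AAV-Osm over AAV-Null) ran from -0.38 to 0.23, with 51 negative (66.2%, against 48.1% of all genes) and 26 positive. Their median was -0.058, and that of all genes was 0.0092. The 95% intervals of all 77 lay within a 2-fold difference in either direction, as did 88.0% of those of all genes. The intervals of 65 of the 77 lay within 1.5-fold (84.4%, against 51.6% of all genes). When AAV-Osm and AAV-Null counts were simulated for all 13192 genes, edgeR found 7 of 50 genes with a 1.5-fold change and 38 of 50 with a 2-fold one. The changed genes were drawn at random from all genes, not from the 77. In the simulation 153 genes were called, against 16 in the real data, so the adjusted threshold was easier to pass there. These rates therefore do not give the power for the 77 genes.

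**Figure D2:**
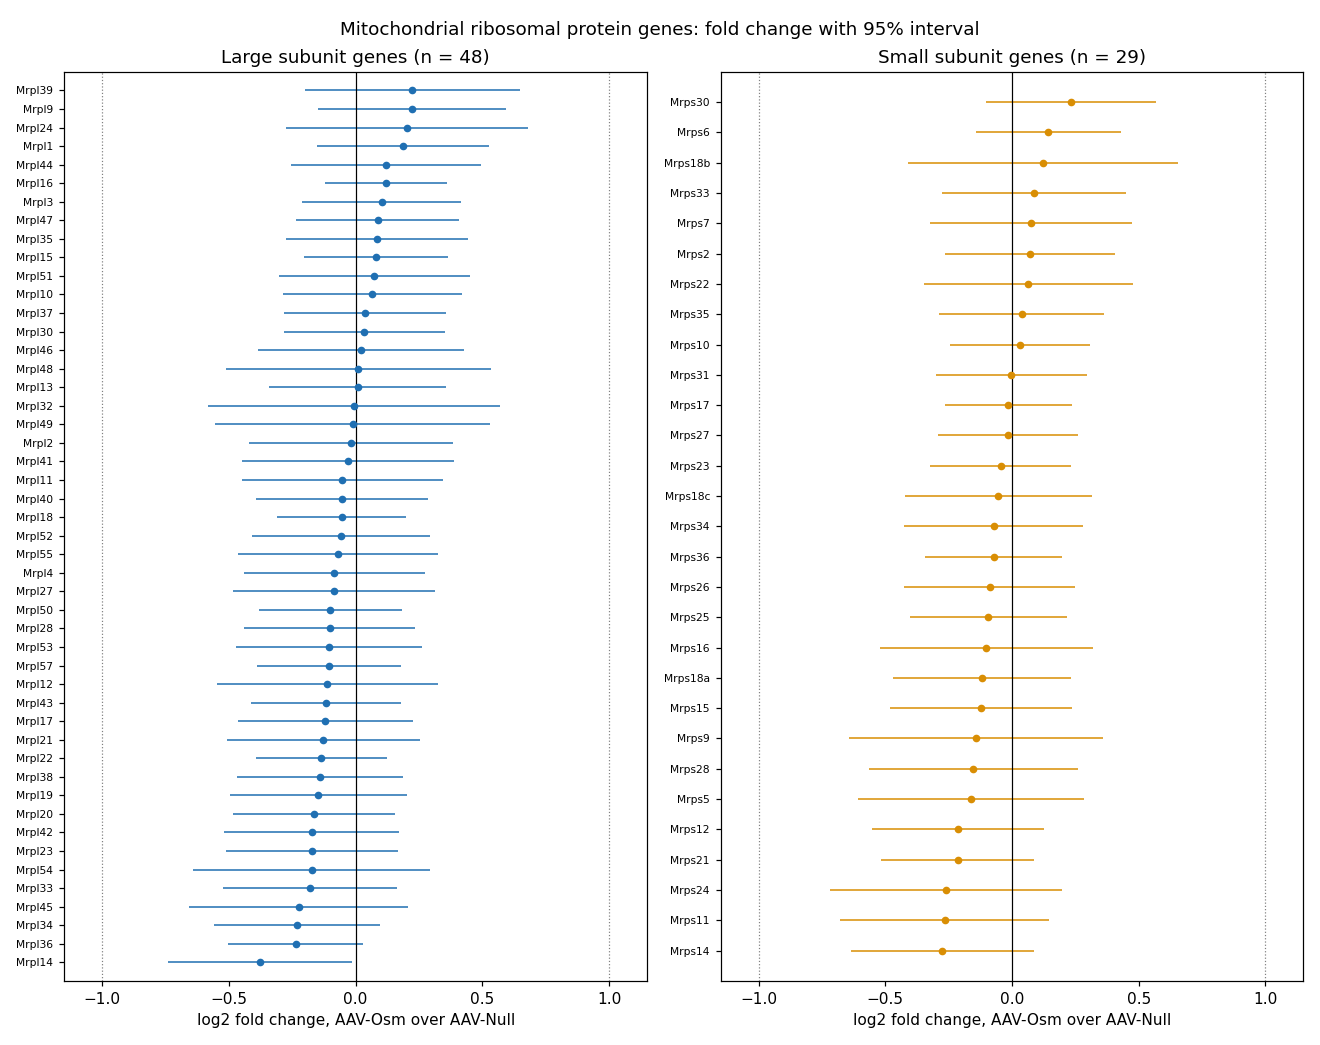
Log2 fold change of each large subunit gene (left) and small subunit gene (right), AAV-Osm over AAV-Null, with its 95% interval from edgeR; dotted lines mark a 2-fold difference. All 77 intervals stay inside the dotted lines, and only that of Mrpl14 leaves out 0. Over all genes, 88.0% of intervals lay within the same bounds.

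Mrpl14 (chromosome 17, 45686372 to 45698495, plus strand, mm10) had the lowest fold change. Its protein is a conserved part of the large subunit that binds the assembly factor MALSU1. It stood at 64.7, 71.2, 69.2, 113 and 70.8 CPM in AAV-Osm 1 to 5, against 99.6, 103, 89.2 and 112 CPM in AAV-Null 1 to 4. In 4 AAV-Osm libraries it was below every AAV-Null library, and in AAV-Osm 4 it was above them all. The means were 77.8 ± 19.9 CPM in AAV-Osm (SD, n = 5) and 101 ± 9.37 CPM in AAV-Null (SD, n = 4), and the log2 fold change was -0.38 (SE 0.17, edgeR unadjusted p = 0.0431, edgeR adjusted p = 0.802). Without AAV-Osm 4 the log2 fold change was -0.55 and the edgeR adjusted p was 0.211, and over all alternatives the adjusted p ran from 0.0848 to 0.9999.

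The next lowest fold changes were those of Mrps14, Mrps11 and Mrps24, small subunit genes. All encode proteins with bacterial counterparts. Mrps14 (chromosome 1, 160195260 to 160201186, plus strand) stood at 34.1, 33.2, 34.0, 46.2 and 52.8 CPM in AAV-Osm 1 to 5, against 48.2, 56.4, 48.1 and 41.1 CPM in AAV-Null 1 to 4 (log2 fold change -0.28, SE 0.17). AAV-Osm 1 to 3 were below every AAV-Null library, and AAV-Osm 4 and 5 lay among them. Mrps11 (chromosome 7, 78783131 to 78792988, plus strand) stood at 31.3, 42.8, 44.4, 63.6 and 35.7 CPM, against 48.7, 51.3, 45.7 and 63.2 CPM in AAV-Null (log2 fold change -0.27, SE 0.19). Here AAV-Osm 4 was just above every AAV-Null library and the other 4 AAV-Osm libraries were below them all. Mrps24 (chromosome 11, 5703983 to 5707699, minus strand) stood at 78.9, 110, 110, 142 and 77.0 CPM in AAV-Osm, against 94.95, 109, 118 and 174 CPM in AAV-Null (log2 fold change -0.26, SE 0.21). AAV-Osm 1 and 5 were below every AAV-Null library, the other 3 lay among them, and AAV-Osm 4 and AAV-Null 4 were the highest of their groups. Its log2 fold change rested on AAV-Null 4: it was -0.052 without that library, 0.038 without AAV-Osm 5 and AAV-Null 4, and 0.025 without AAV-Null 3 and 4. With any 1 library left out it ran from -0.40 (without AAV-Osm 4) to -0.052, that of Mrps11 from -0.44 (without AAV-Osm 4) to -0.16 (without AAV-Null 4), and that of Mrps14 from -0.39 to -0.19.

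The highest fold changes were those of Mrps30, Mrpl39, Mrpl9 and Mrpl24. Mrps30 (chromosome 13, 118380110 to 118387252, minus strand), whose product sits in the large subunit, stood at 57.04, 46.8, 41.4, 36.5 and 46.7 CPM in AAV-Osm 1 to 5, against 34.0, 38.8, 47.6 and 35.4 CPM in AAV-Null 1 to 4 (log2 fold change 0.23, SE 0.16). AAV-Osm 1 was above every AAV-Null library, and the others lay within the AAV-Null range. Mrpl39 (chromosome 16, 84717580 to 84735302, minus strand), one of the proteins without a bacterial counterpart, stood at 75.9, 80.0, 68.6, 42.1 and 67.2 CPM, against 46.1, 47.3, 72.3 and 63.3 CPM in AAV-Null (log2 fold change 0.22, SE 0.20). Mrpl9 (chromosome 3, 94443336 to 94448708, plus strand) stood at 122, 136, 106, 90.2 and 90.6 CPM, against 76.2, 79.1, 112 and 106 CPM in AAV-Null (log2 fold change 0.22, SE 0.17). Mrpl24 (chromosome 3, 87919544 to 87923433, plus strand) stood at 96.2, 111, 105, 62.9 and 70.6 CPM, against 54.9, 60.1, 101 and 94.3 CPM in AAV-Null (log2 fold change 0.20, SE 0.22); its locus overlaps that of another listed gene, so its counts are uncertain. In Mrpl39, Mrpl9 and Mrpl24 alike, AAV-Null 1 and 2 were low and AAV-Null 3 and 4 high. Without AAV-Null 1 the log2 fold change was 0.068 for Mrpl24, 0.13 for Mrpl39 and 0.14 for Mrpl9, and without AAV-Null 3 it was 0.35, 0.36 and 0.32 for these genes. That of Mrps30 was 0.14 without AAV-Osm 1 and 0.34 without AAV-Null 3. The edgeR adjusted p of these 4 genes ran from 0.931 to 0.961.

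**Figure D3:**
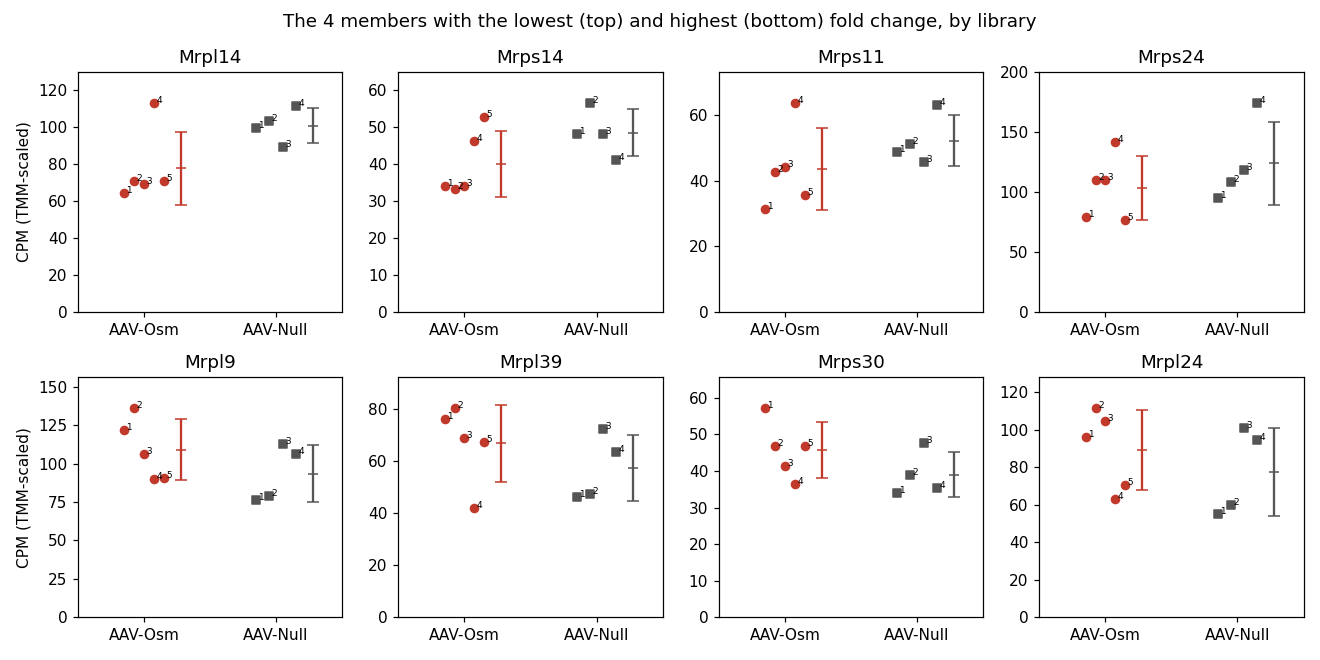
CPM of the 4 genes with the lowest fold change (top) and the 4 with the highest (bottom) in each library, AAV-Osm left and AAV-Null right, with the library number beside each point and mean and SD to its right. The groups overlap in all 8 panels; for Mrpl14, AAV-Osm 4 at 113 CPM is above all AAV-Null libraries while the other 4 AAV-Osm libraries are below them.

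Of the 7 genes chosen for their roles, Mrps30 had the highest fold change of all 77 and Mrps12 one of the lower ones. Mrpl12 (chromosome 11, 120484669 to 120488754, plus strand), the stalk gene, averaged 283 ± 50.7 CPM in AAV-Osm and 306 ± 92.5 CPM in AAV-Null libraries (SD, n = 5 and 4; log2 fold change -0.11, SE 0.20). Within the AAV-Null group it went as high as 425 CPM, in AAV-Null 4, and as low as 220 CPM, in AAV-Null 1. Mrps12 (chromosome 7, 28739641 to 28741781, minus strand), which encodes a protein of the decoding centre, averaged 42.2 ± 9.26 CPM in AAV-Osm and 48.8 ± 1.89 CPM in AAV-Null libraries (log2 ratio -0.21, SE 0.16, adjusted p = 0.934 in edgeR). Mrpl32 (chromosome 13, 14610301 to 14613037, minus strand), whose product the m-AAA protease must trim before it can join the ribosome, stood at 24.4, 18.4, 13.5, 23.2 and 36.0 CPM in AAV-Osm 1 to 5, against 27.1, 30.5, 20.8 and 14.5 CPM in AAV-Null 1 to 4. Its log2 fold change was -0.0059 (SE 0.27). It was low in AAV-Null 4, where Mrpl12 was high.

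Mammals have 3 paralogues of a single bacterial small subunit protein, Mrps18a, Mrps18b and Mrps18c. They differed in level. Mrps18a was at 137 CPM per kilobase, Mrps18c at 88.8 and Mrps18b at 29.5. Their log2 fold changes were -0.12 (SE 0.16) for Mrps18a, 0.12 (SE 0.25) for Mrps18b and -0.055 (SE 0.17) for Mrps18c. In CPM, Mrps18a averaged 114 ± 17.1 in AAV-Osm and 124 ± 26.0 in AAV-Null libraries, Mrps18b 32.2 ± 9.489 in AAV-Osm and 29.6 ± 9.498 in AAV-Null libraries, and Mrps18c 43.8 ± 5.01 in AAV-Osm and 45.5 ± 11.6 in AAV-Null libraries (SD, n = 5 and 4). The edgeR adjusted p of each was 0.972 or more, and each difference was smaller than the SD between libraries.

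Between the subunits, the medians were alike. The median log2 fold change was -0.056 for the 48 large subunit genes (31 negative, 17 positive) and -0.072 for the 29 small subunit genes (20 negative, 9 positive), a difference of 0.016, large minus small. Negative were 64.6% of the large and 69.0% of the small subunit genes, against 48.1% of all genes. The large subunit genes summed to 4352 ± 391.5 CPM in AAV-Osm and 4533 ± 685 CPM in AAV-Null libraries, and the small subunit genes to 1893 ± 138 CPM in AAV-Osm and 2009 ± 171 CPM in AAV-Null libraries (SD, n = 5 and 4). The mean log2 CPM of large minus small subunit genes was 0.42, 0.49, 0.43, 0.37 and 0.31 in AAV-Osm 1 to 5, against 0.32, 0.31, 0.42 and 0.49 in AAV-Null 1 to 4. The ranges were nearly the same in both groups, with AAV-Osm 5 and AAV-Null 2 the lowest of theirs. Counting Mrps18a and Mrps30 as large subunit genes left the medians at -0.056 for the large and -0.072 for the small subunit. Mrps36 was kept among the small subunit genes in both counts, and below among the genes without a bacterial counterpart. Split by ancestry, the 48 genes with a bacterial counterpart had a median of -0.084 and the 29 without one a median of -0.045. In the small subunit these were -0.12 (18 genes) and -0.016 (11 genes), and in the large subunit -0.063 (30 genes) and -0.055 (18 genes).

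Both subunits moved with the library more than with the group. In AAV-Null 4, 60 of the 77 genes were above their own mean over the 9 libraries, in AAV-Null 3 also 60, and in AAV-Osm 2, 54. In AAV-Null 1 it was 19 and in AAV-Osm 5 it was 25. The median deviation of log2 CPM from each gene's own mean was -0.13, 0.12, 0.062, 0.042 and -0.21 for large subunit genes in AAV-Osm 1 to 5, against -0.22, -0.089, 0.13 and 0.29 in AAV-Null 1 to 4. For small subunit genes it was -0.041, 0.015, 0.00044, 0.050 and -0.15 in AAV-Osm, against -0.14, 0.010, 0.11 and 0.21 in AAV-Null. AAV-Null 4 was the highest for both subunits, and AAV-Osm 5 and AAV-Null 1 were the lowest for both. For both subunits the SD among AAV-Null libraries (0.22 and 0.15) exceeded the size of the difference between the group means (-0.050 for large and -0.072 for small subunit genes). The direction of the large subunit median rested on these libraries: it was 0.033 without AAV-Null 4, 0.14 without AAV-Null 3 and 4, 0.091 without AAV-Null 4 and AAV-Osm 5, and 0.11 where limma-voom weighted the libraries by quality. The small subunit median in the same fits was -0.016, 0.029, 0.011 and -0.012. Without AAV-Null 3 and 4, edgeR still called 0 of the 77, and 7 had an unadjusted p under 0.05, all higher in AAV-Osm, where 9.99% of all genes had one in either direction. Leaving out AAV-Osm 4 instead gave the opposite direction. There edgeR also called 0 of the 77, and 6 had an unadjusted p under 0.05, all lower in AAV-Osm. In that fit 8.89% of all genes had one in either direction.

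**Figure D4:**
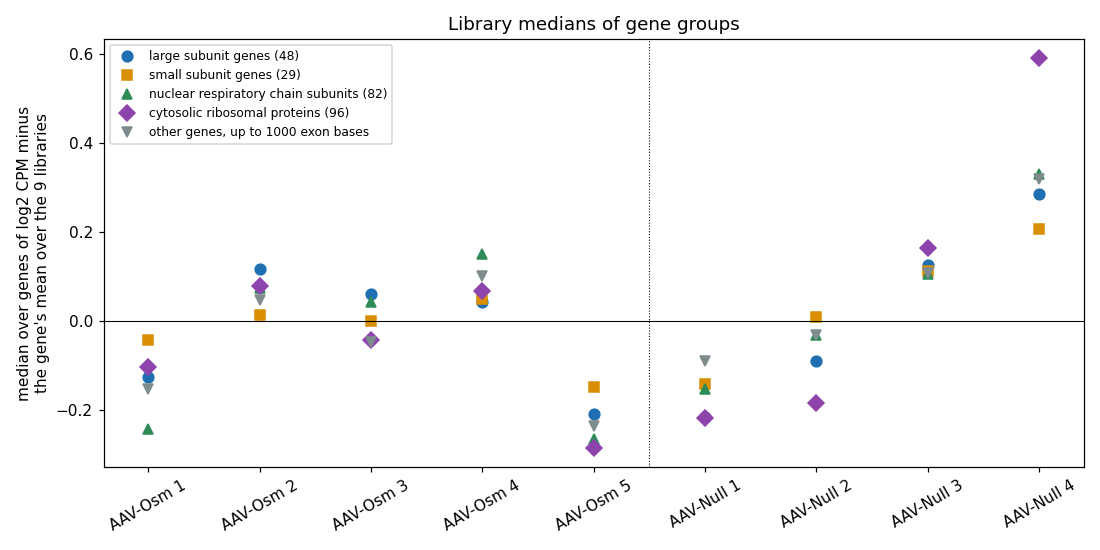
For each library, AAV-Osm left and AAV-Null right, the median over genes of log2 CPM minus the gene's mean over the 9 libraries, for 5 groups of genes. All 5 groups are at their highest in AAV-Null 4 (0.29 for large and 0.21 for small subunit genes) and below 0 in AAV-Osm 5 and AAV-Null 1.

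Other genes moved with these libraries. The nuclear respiratory chain subunits (82 genes) had a median deviation of 0.33 in AAV-Null 4 and -0.27 in AAV-Osm 5, and the cytosolic ribosomal proteins (96 genes) one of 0.59 and -0.28 in these libraries. So did genes with short transcripts: among other genes with up to 1000 bases of listed exon (893), the median deviation was -0.15, 0.048, -0.046, 0.10 and -0.23 in AAV-Osm 1 to 5, against -0.090, -0.030, 0.11 and 0.32 in AAV-Null 1 to 4. Of the 77 genes, the 31 with up to 1000 bases had a median log2 fold change of -0.11 with 26 negative, and the 46 longer ones a median of -0.013 with 25 negative. The other short genes had a median of -0.14 (75.8% negative) and the other longer genes one of 0.019 (46.0% negative). The short members were 20 of the large subunit (median -0.12) and 11 of the small subunit (median -0.10). The heart muscle cell markers summed to 94041, 123053, 119025, 109376 and 93392 CPM in AAV-Osm 1 to 5, against 91445, 93454, 102286 and 115665 CPM in AAV-Null 1 to 4. They were lowest in AAV-Null 1, AAV-Osm 5 and AAV-Null 2 and highest in AAV-Osm 2 and 3 and AAV-Null 4. Fibroblast markers (9 of 9 listed) summed to 1742 to 2739 CPM in AAV-Osm and 2185 to 3323 CPM in AAV-Null libraries, and endothelial markers (8 of 8 listed) to 1012 to 1306 CPM in AAV-Osm and 1104 to 1464 CPM in AAV-Null libraries, both highest in AAV-Null 4. Liver-type markers, all 16 of them listed, summed to 63.2 to 158 CPM in AAV-Osm libraries and to 54.0, 71.4, 329 and 257 CPM in AAV-Null 1 to 4. Macrophage markers, all 9 listed, summed to 467 to 662 CPM in AAV-Osm libraries and to 442 to 941 CPM in AAV-Null libraries, with AAV-Null 4 the highest. Smooth muscle and pericyte markers, all 7 listed, summed to 217.6 to 266.4 CPM in AAV-Osm and 222.1 to 301.95 CPM in AAV-Null libraries. They went the other way, with AAV-Null 4 the lowest of its group and AAV-Null 1 the highest of all libraries. The part of transcript length, RNA quality or these cells in the library differences was not tested.

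Around the ribosome, the rest of the mitochondrial translation machinery gave no call in edgeR either (0 of the genes in every list below, where 0.121% of all genes passed). Beside the counts of signs below, 48.1% of all genes had a negative log2 fold change. Of 6 ribosomal proteins whose symbols lie outside the rule, 2 had positive and 4 negative log2 fold changes (median -0.044). Ptcd3, which encodes a small subunit protein, stood at 85.9, 64.6, 41.7, 26.4 and 65.3 CPM in AAV-Osm 1 to 5, against 27.9, 31.6, 59.6 and 32.4 CPM in AAV-Null 1 to 4 (log2 ratio 0.59, SE 0.31, adjusted p = 0.883 in edgeR). AAV-Osm 1, 2 and 5 were above every AAV-Null library, and AAV-Osm 4 was below them all. Aurkaip1, also of the small subunit, was at -0.15 (SE 0.15).

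Of 27 genes for ribosome assembly and ribosomal RNA maturation, 13 were positive and 14 negative (median -0.032), and 1 had an unadjusted p under 0.05. This was Tfb1m, which encodes the methyltransferase of the small subunit's RNA, at 7.14 ± 1.45 CPM in AAV-Osm and 5.19 ± 1.17 CPM in AAV-Null libraries (SD, n = 5 and 4; log2 ratio 0.45, SE 0.20, adjusted p = 0.802 in edgeR). Ngrn, needed for maturation of the large subunit's RNA, had a log2 fold change of 0.24 (SE 0.14). Of 17 translation factors and activators, 12 were positive and 5 negative (median 0.10). Slirp, the partner of Lrpprc in stabilising mitochondrial messenger RNA, was at 46.0 ± 4.99 CPM in AAV-Osm and 56.2 ± 4.88 CPM in AAV-Null libraries (log2 fold change -0.29, SE 0.13, edgeR unadjusted p = 0.0377, edgeR adjusted p = 0.796). Taco1, an activator of translation of a cytochrome c oxidase subunit, was at 21.7 ± 5.19 CPM in AAV-Osm and 16.3 ± 3.48 CPM in AAV-Null libraries (log2 ratio 0.42, SE 0.20, adjusted p = 0.844 in edgeR).

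Of 20 mitochondrial aminoacyl-tRNA synthetase and amidotransferase genes, which charge the organelle's transfer RNAs, 14 were positive and 6 negative (median 0.089). On the log2 scale Tars2 was at 0.23 (SE 0.13) and Vars2 at 0.27 (SE 0.15). Of 17 genes for transcription of mitochondrial DNA and processing of its RNA, 11 were positive (median 0.050). Tfam, which packages that DNA, was at 0.26 (SE 0.19) and Mterf2 at 0.25 (SE 0.18). Among 10 transcriptional regulators of mitochondrial genes, 7 were positive (median 0.071), and the nuclear receptor genes Esrrg and Esrra were at 0.18 (SE 0.12) and -0.19 (SE 0.16). Of 7 genes of the m-AAA protease, the prohibitins and matrix proteases, 4 were positive (median 0.038). Spg7, a subunit of the m-AAA protease that trims the Mrpl32 product, was at 0.16 (SE 0.12), and Clpx, the matrix unfoldase, at 0.40 (SE 0.21). The nuclear respiratory chain subunits and the cytosolic ribosomal proteins had medians of -0.13 (60 of 82 negative) and -0.18 (81 of 96 negative). Differences between these lists and the 77 genes were not tested.

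**Figure D5:**
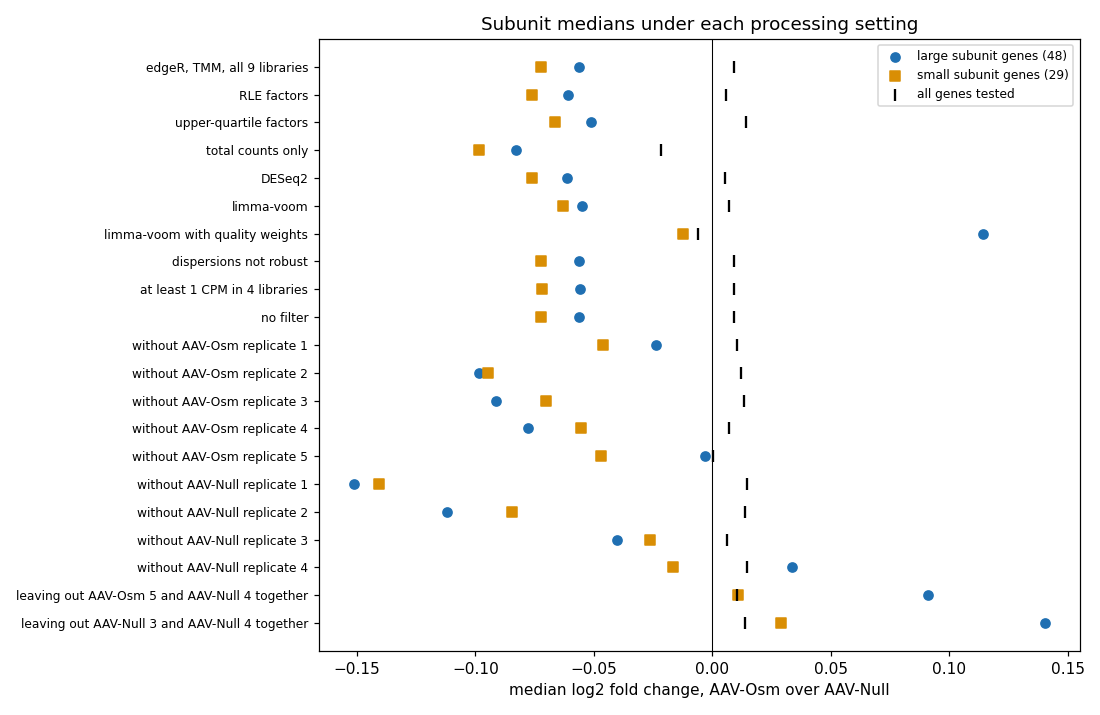
Median log2 fold change, AAV-Osm over AAV-Null, of the large subunit genes (circles), small subunit genes (squares) and all genes tested (bars) under each of the 21 fits, with edgeR on all 9 libraries at the top. The large subunit median runs from -0.15 without AAV-Null 1 to 0.14 without AAV-Null 3 and 4, while the median of all genes stays near 0.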

How the data were processed

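RNA was sequenced from 9 heart apex samples (5 AAV-Osm, 4 AAV-Null) as 75 base paired ends, per the labels' protocols, with STAR 2.5.2b, featureCounts and Subread 1.5.1 on mm10, per the submitters' processing notes. The authors deposited raw counts per gene, with exon coordinates and summed exon length. The sources used here do not state the annotation, whether counting used strand, or how multi-mapped reads were handled, nor each sample's RNA integrity. Of the table's lines, 4141 were blank and were left out.

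Counts were scaled by TMM factors and tested with edgeR 4.0.16 (R 4.3.3; filterByExpr, robust two-sided quasi-likelihood F test, group as the only term), with Benjamini-Hochberg adjustment over all 13192 genes and a threshold of 0.05. SE is the log2 fold change over the square root of F, and 95% intervals use it. The test was checked on simulated counts. CPM are TMM-scaled, and log2 CPM per library used a prior count of 2. Library numbers are names only and pair nothing. No pair of libraries held identical values. The smallest chi-square per degree of freedom between libraries was 6.515, for AAV-Null 1 and 2, followed by 9.68 for AAV-Osm 2 and 3. Other pairs ran from 17.3 to 132. Such values cannot tell separate mice from repeat preparations of the same mouse. Each library was treated as its own sample.

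The genes, lists, markers, alternatives and naming rule were chosen with earlier results of these data known. The rule named the 3 highest and 3 lowest genes per length in each subunit, the 4 largest and 4 smallest fold changes, any gene with an unadjusted p under 0.05 or no overlap between groups, 7 genes for their roles, and the 2 genes with the smallest p of each other list under 40 genes. Promoter motifs were chosen later. DESeq2 1.42.0 and limma 3.58.1 were alternatives. Promoters came from RefSeq, whose build has the coordinates of mm10.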

Additional observations from a re-analysis of the deposited data

Results flagged for a closer look

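Mrpl14 in AAV-Osm 4 stood apart from the rest of its group, at 113 CPM where the other 4 AAV-Osm libraries ran from 64.7 to 71.2 CPM. This was 1 flag among 60 groups of values examined, where chance gives about 1 in 20. The groups held values of named genes and of the subunit sums and means, but not every named gene in both AAV-Osm and AAV-Null. AAV-Osm 4 had the fewest total counts of all libraries (11841106). It was also the highest of its group for other genes, such as Mrpl33 (164 CPM) and Mrpl34 (116 CPM). For others, such as Mrpl24 (62.9 CPM) and Mrpl39 (42.1 CPM), it was the lowest. What sets this library apart for these genes was not tested.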

How the results depend on the processing

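The count of 0 of 77 held in all 20 alternative fits. Over all genes, 16 passed in edgeR, 53 in DESeq2, 170 in limma-voom with quality weights, and 4 to 11 with 1 library left out in turn. It was 13 without AAV-Osm 5 and AAV-Null 4 together and 16 without AAV-Null 3 and 4 together; the cause was not tested. The large subunit median was 0.14 without AAV-Null 3 and 4, and ran from -0.15 to 0.033 with 1 library left out. The small subunit median ran from -0.14 to -0.016 in those fits. The difference of large minus small was 0.13 with quality weights and 0.11 without AAV-Null 3 and 4, against 0.016 in the main analysis, and -0.027 to 0.050 with 1 library left out; the cause was not tested. Quality weights, lowest for AAV-Null 4 (0.344) and AAV-Osm 5 (0.467) and highest for AAV-Null 2 (3.35), gave 16 of 77 an unadjusted p under 0.05, 9 of them higher in AAV-Osm, beside 25.2% of all genes. Scaling by RLE, upper-quartile or total counts, dispersions that are not robust, other filters and leaving out genes that overlap another listed gene moved no subunit median by more than the spread between libraries. Of 760 single-gene values (38 named genes in 20 alternatives), 0 passed the threshold, and 52 had the other sign, in 15 genes. No paired analysis was possible because the labels carry no replicate numbers. The lowest count of any of the 77 genes in a library was 189, which limits the precision of the least covered values.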

Other observations

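Several of the genes share a start region with another gene. In the file's coordinates, 23 of the 77 (29.9%) had a listed gene on the opposite strand whose start lay upstream within 1000 bases, against 11.4% of 13187 listed genes with a single chromosome. One such pair joins the subunits: Mrps11 and Mrpl46 start 42 bases apart on chromosome 7. Mrpl46 stood at 47.9, 52.1, 52.4, 39.0 and 36.4 CPM in AAV-Osm 1 to 5, against 30.7, 39.5, 52.7 and 56.8 CPM in AAV-Null 1 to 4 (log2 fold change 0.020, SE 0.19), while Mrps11 was at -0.27 (SE 0.19). In AAV-Osm 4, Mrps11 was the highest of its group and Mrpl46 the second lowest. Another pair is Mrps12 with Sars2, the mitochondrial serine-tRNA synthetase gene, 187 bases apart; Sars2 was at 12.8 ± 2.48 CPM in AAV-Osm and 13.1 ± 0.405 CPM in AAV-Null libraries (SD, n = 5 and 4; log2 fold change -0.032, SE 0.16).

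The genes also differed in how much they varied between libraries of a group; those named here were chosen after their values were seen. The median SD of log2 CPM within groups was 0.25 for the 77 genes and 0.29 for all genes. Mrpl16 was the steadiest of the 77, with an SD of 0.070, at 73.5 ± 2.76 CPM in AAV-Osm and 67.6 ± 3.99 CPM in AAV-Null libraries. Mrps17 was next at 0.096. Mrpl32 (0.50), Mrpl49 (0.47) and Mrps18b (0.46) varied the most. Mrpl49 stood at 71.1 ± 20.9 CPM in AAV-Osm and 71.6 ± 25.3 CPM in AAV-Null libraries, and the values of AAV-Null 1 and 2 were 50.1 and 50.8 CPM where those of AAV-Null 3 and 4 were 84.4 and 101 CPM.

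Pseudogenes named after Mrpl23, Mrpl48 and Mrps36 stand in the GENCODE M21 annotation of the same build, 5 in all, so reads shared with them leave the counts of these 3 genes uncertain. In addition, 10 of the 77 genes overlap another listed gene.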
